A study of Mus musculus with 16 samples.

Results

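Caveolae are flask-shaped pits of the plasma membrane that are built from caveolins, which are inserted in the inner leaflet, and from cavins, which coat them from the cytosol. The caveolins Cav1 and Cav2 and the cavins Cavin1, Cavin2 and Cavin3 were read in mouse colon organoids. They are 5 of 54123 annotated genes, and they were selected on a readout of these data, because Cav2 had been seen higher after Cdx2-sgRNA in proximal organoids. For this reason every difference between Cdx2-sgRNA and Scramble-sgRNA proximal organoids is given for these genes as a description, without a test.

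The 16 libraries form 8 groups of 2, set by region (proximal or distal colon), guide (Scramble-sgRNA or Cdx2-sgRNA) and medium (WENR-plus or WENR-minus). All organoids, controls included, were derived from 8-week-old female mice that were heterozygous for a Cre-inducible BRAFV600E allele and for a tdTomato reporter. No Cre is described for these libraries, so that the Braf allele is taken as not activated, and its state was not read here. Both guides were delivered with Cas9 by lentivirus, and the organoids were selected with antibiotic for 2 weeks. The Cdx2-sgRNA organoids were each grown from 1 clone with a frameshift mutation, a step that is not described for Scramble-sgRNA organoids, so that the effect of the guide and that of growth from 1 clone cannot be told apart. In the 4th month of culture, organoids were kept for 2 days in WENR-plus medium, which contains Wnt3a, EGF, Noggin and R-spondin 1, and then for 3 days either in the same medium or in WENR-minus medium, which contains none of these factors. Per the methods, organoids came from different mice in both replicates.

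Total estimated counts per library ranged from 12465194 to 18922143, and mitochondrial ribosomal RNA took 15.4 to 28.0% of them. Cdx2 itself fell in proximal Cdx2-sgRNA organoids from 177 ± 36.5 to 72.4 ± 2.00 CPM (counts-per-million after TMM scaling, mean ± SD, n = 2) in WENR-minus (log2 fold change −1.29, adjusted p = 0.000679 by the quasi-likelihood test of edgeR) and from 134 ± 10.3 to 31.6 ± 2.44 CPM in WENR-plus (−2.09, adjusted p = 5.48e-05). In distal organoids it did not pass the test (adjusted p = 0.876 and 0.857). A frameshift need not lower RNA, and these reads do not show the protein.

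Cav1 is the scaffold that most tissues need to form caveolae, and Cav2 is its partner, which depends on Cav1 to leave the Golgi. Cavin1 is the cavin required for caveolae to form. Cavin2 and Cavin3 are recruited by Cavin1 and shape the coat, Cavin2 through membrane curvature and Cavin3 through trafficking of the vesicle. The genes are best known from adipocytes, endothelium, muscle and fibroblasts, and absorptive epithelium of the gut is known for few caveolae. Cav1 (chr6:17306335-17341452, plus strand, GRCm38) and Cav2 (chr6:17281185-17289115, plus strand) are neighbours, whereas Cavin1 (chr11:100956733-100970887, minus strand), Cavin2 (chr1:51289126-51302960, plus strand) and Cavin3 (chr7:105480083-105482300, minus strand) lie on other chromosomes.

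The 250 bases before the annotated start of Cav2, Cavin2 and Cav1 are shown because the first 2 of these genes were high in both proximal Cdx2-sgRNA cultures and Cav1 was high in 1 of them. They are RefSeq promoter windows of GRCm38.p6 on the plus strand, at chr6:17280935-17281184 for Cav2, chr1:51288876-51289125 for Cavin2 and chr6:17306085-17306334 for the upstream start of Cav1. Capitals mark the letters CCAAT and GGGCGG (a GC box), TTTAT (the core that Cdx proteins are known to prefer) and GGAATG (the core of TEAD sites), searched on both strands.
Cav2: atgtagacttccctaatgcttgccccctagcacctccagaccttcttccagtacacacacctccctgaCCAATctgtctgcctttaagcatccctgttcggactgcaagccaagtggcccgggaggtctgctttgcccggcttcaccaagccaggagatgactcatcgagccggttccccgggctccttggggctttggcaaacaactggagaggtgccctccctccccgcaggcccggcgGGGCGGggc
Cavin2: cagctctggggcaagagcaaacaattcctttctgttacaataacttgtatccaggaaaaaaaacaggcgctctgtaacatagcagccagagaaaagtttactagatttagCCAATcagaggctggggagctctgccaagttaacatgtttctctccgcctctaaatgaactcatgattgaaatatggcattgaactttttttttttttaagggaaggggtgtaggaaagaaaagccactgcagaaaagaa
Cav1: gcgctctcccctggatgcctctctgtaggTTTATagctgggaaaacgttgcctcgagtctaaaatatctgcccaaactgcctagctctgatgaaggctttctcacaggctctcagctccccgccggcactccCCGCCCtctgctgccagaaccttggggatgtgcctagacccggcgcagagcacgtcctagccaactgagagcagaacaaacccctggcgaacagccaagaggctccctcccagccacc

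The Cav2 window held 1 CCAAT, 182 bases before the start, and 1 GC box, 9 bases before it. The Cavin2 window held 1 CCAAT, 140 bases before the start, and no match of the other letters. In the Cav1 window lay 1 Cdx core, 221 bases before its upstream start, and 1 GC box on the minus strand. A further Cav1 window, at chr6:17307390-17307639 before the start of transcript Cav1-202, which held 31.0% of the Cav1 reads, lies within the gene, is not printed and held no match of the 4 sets of letters. Both Cavin1 windows of the table lie within its annotated GENCODE transcript and are not printed. They hold 1 match each of CCAAT, the GC box and the TEAD core. Of 32851 promoter windows of this length, 33.8% hold CCAAT, 32.7% the GC box, 37.3% the Cdx core and 12.6% the TEAD core. The windows of Cav2 and Cavin2 differ in base composition, with 62.0 and 40.4% G or C. A match is a description of the letters in these windows and not a binding site.

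Cav2 was highest in proximal Cdx2-sgRNA organoids, and its levels over all 16 libraries lay between 61.5 and 290 CPM. In WENR-plus its level was 290 and 207 CPM in proximal Cdx2-sgRNA organoids (replicates 1 and 2, as in all pairs of values here) and 73.8 and 71.8 CPM in proximal Scramble-sgRNA organoids. In WENR-minus it was 231 and 159 CPM against 143 and 87.3 CPM. The Cdx2-sgRNA libraries lay above those of Scramble-sgRNA in both media, with log2 fold changes of 1.77 (SE 0.29) for WENR-plus and 0.76 (SE 0.28) for WENR-minus. The 4 distal groups and the proximal Scramble-sgRNA group in WENR-plus had means from 72.6 ± 15.8 to 86.4 ± 23.4 CPM and overlapped each other. Transcript Cav2-201 held 92.5% of the Cav2 reads.

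Cavin1 was highest in proximal Cdx2-sgRNA organoids, where its replicates lay close together. It reached 371 and 402 CPM there in WENR-minus, against 8.24 and 5.05 CPM in Scramble-sgRNA organoids. In WENR-plus it was 199 and 194 CPM against 23.8 and 16.9 CPM. The log2 fold changes were 5.86 (SE 0.44) and 3.27 (SE 0.39), and the groups did not overlap in either medium. From high to low, the group means after the proximal Cdx2-sgRNA pair were 96.6 ± 45.8 CPM in distal Cdx2-sgRNA organoids in WENR-plus, 45.2 ± 21.7 in the same organoids in WENR-minus and 45.0 ± 1.099 in distal Scramble-sgRNA organoids in WENR-plus. Proximal Scramble-sgRNA organoids in WENR-plus followed with 20.4 ± 4.89, distal Scramble-sgRNA organoids in WENR-minus with 15.1 ± 0.546 and proximal Scramble-sgRNA organoids in WENR-minus with 6.65 ± 2.25. Among neighbours in this order, only distal Cdx2-sgRNA in WENR-minus and distal Scramble-sgRNA in WENR-plus overlapped.

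Cavin2 was close to absent outside proximal Cdx2-sgRNA organoids. It held 1444 and 1308 reads in these organoids in WENR-minus (107 and 69.2 CPM), against 1 and 6 reads in Scramble-sgRNA organoids. In the other medium it held 1674 and 1573 reads (97.1 and 83.2 CPM) against 28 and 10. The log2 fold changes were 8.76 (SE 0.51) and 6.51 (SE 0.43). In WENR-minus the value was 8.13 without Scramble-sgRNA replicate 1 and 10.3 without Scramble-sgRNA replicate 2. In WENR-plus it was 7.27 without Scramble-sgRNA replicate 1 and 6.09 without Scramble-sgRNA replicate 2. In distal organoids no library held more than 23 reads of Cavin2. Across the 4 proximal Cdx2-sgRNA libraries its levels in both media overlapped.

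**Figure D1:**
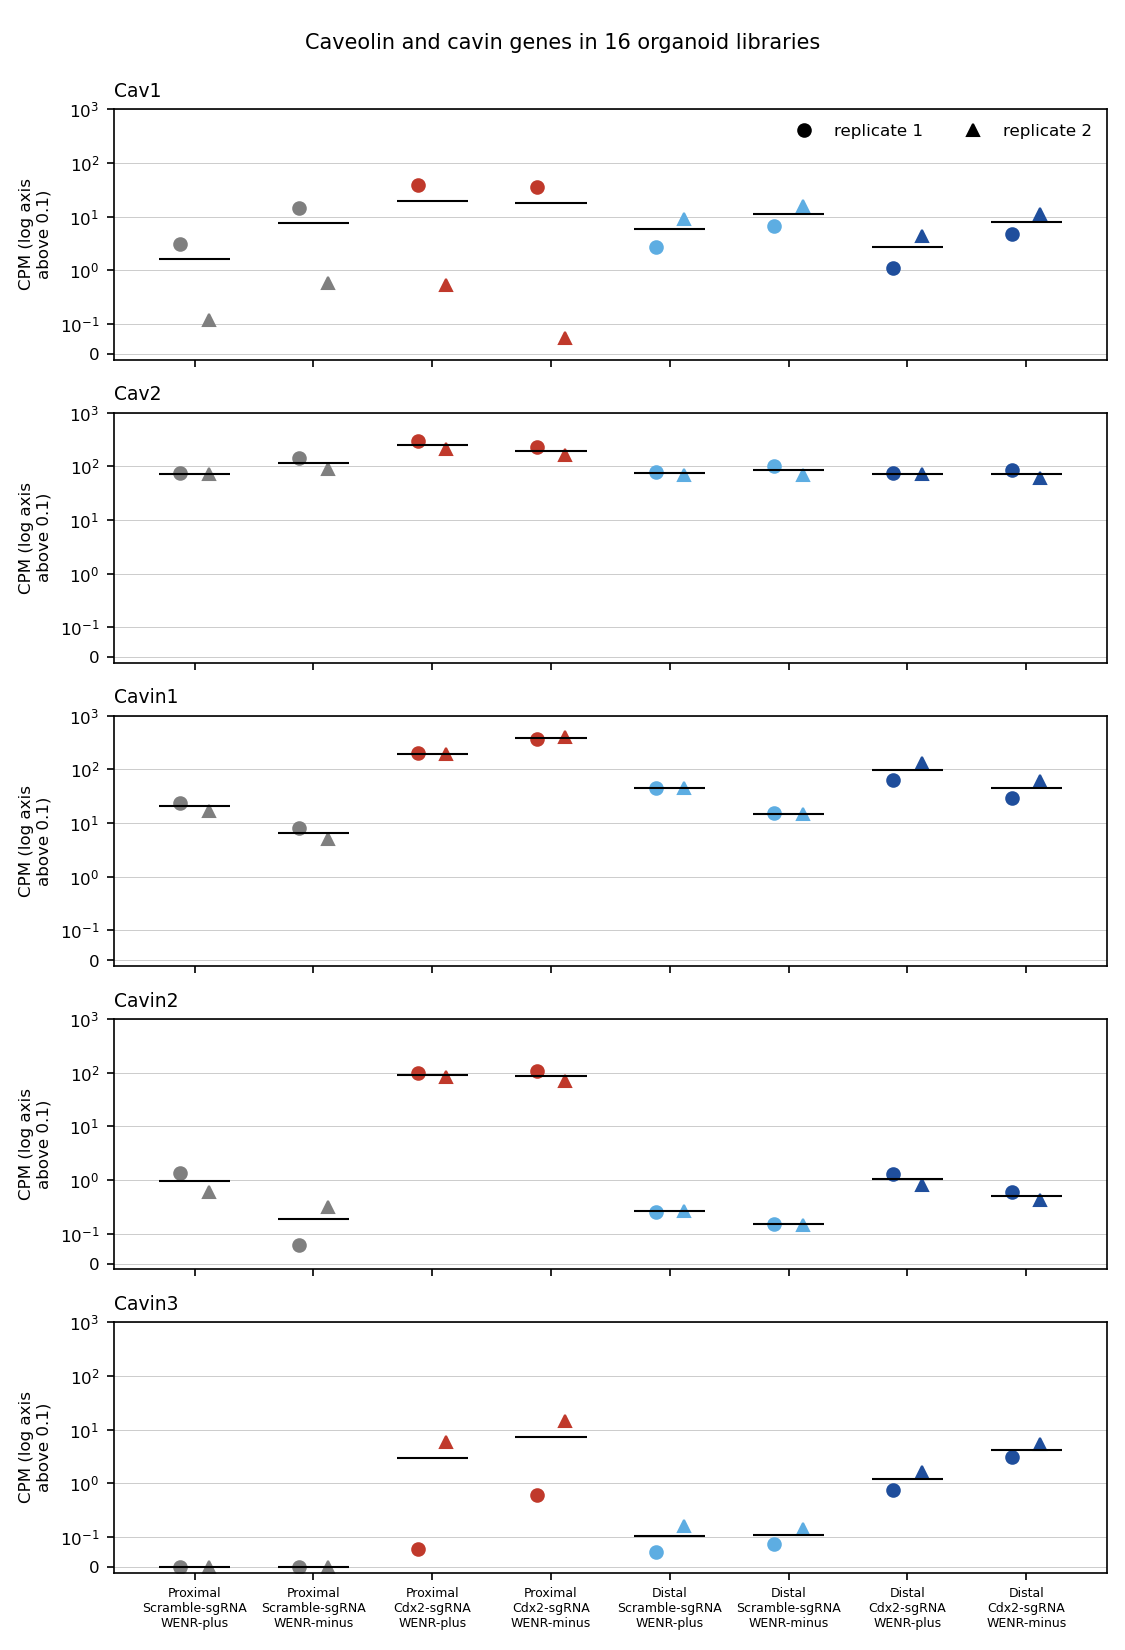
Counts-per-million (TMM-scaled, logarithmic above 0.1) of Cav1, Cav2, Cavin1, Cavin2 and Cavin3 in 16 libraries, by group. Circles are replicate 1, triangles replicate 2 and bars the mean of 2 libraries. Cav2, Cavin1 and Cavin2 stand high in both replicates of proximal Cdx2-sgRNA organoids, Cav1 only in replicate 1 and Cavin3 mainly in replicate 2.

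Cav1 and Cavin3 split by replicate in proximal organoids. Cav1 held 676 reads in replicate 1 and 10 in replicate 2 of the proximal Cdx2-sgRNA organoids in WENR-plus, and 484 and 1 in WENR-minus. In proximal Scramble-sgRNA organoids it held 64 and 2 reads in WENR-plus and 238 and 11 in WENR-minus. Replicate 2 of proximal organoids was thus low in Cav1 with either guide, and its 4 libraries held at most 11 reads each. In distal organoids both replicates were read, replicate 2 higher than replicate 1 in each group, from 19 and 82 reads (Cdx2-sgRNA, WENR-plus) to 88 and 224 reads (Scramble-sgRNA, WENR-minus). Because of this split the standard error of a log2 fold change of Cav1 between groups was 1.92 to 2.19, and no such difference of Cav1 passed with the filter on low counts and no block.

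Cavin3 was not detected in proximal Scramble-sgRNA organoids, with 0 reads in each of 4 libraries, which allows up to 3 reads per library. In proximal Cdx2-sgRNA organoids it held 8 and 268 reads in WENR-minus, while the WENR-plus libraries held 1 and 112. Against a floor of 3 reads per library the group mean was at least 43.2-fold higher in WENR-minus and at least 18.6-fold higher in WENR-plus, and both bounds rest on replicate 2. The proximal Cdx2-sgRNA culture with high Cav1 was therefore the one with low Cavin3, and the reverse. As each of these Cdx2-sgRNA cultures was a clone of its own from a different mouse, clone and mouse cannot be told apart for Cavin3. For Cav1, replicate 2 was also the lower one in proximal Scramble-sgRNA organoids, for which no growth from a clone is described. The cause of the split was not tested. Over 16 libraries the Pearson correlation of log2 CPM was −0.26 between Cav1 and Cavin3, and both genes were present together in distal Cdx2-sgRNA organoids.

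**Figure D2:**
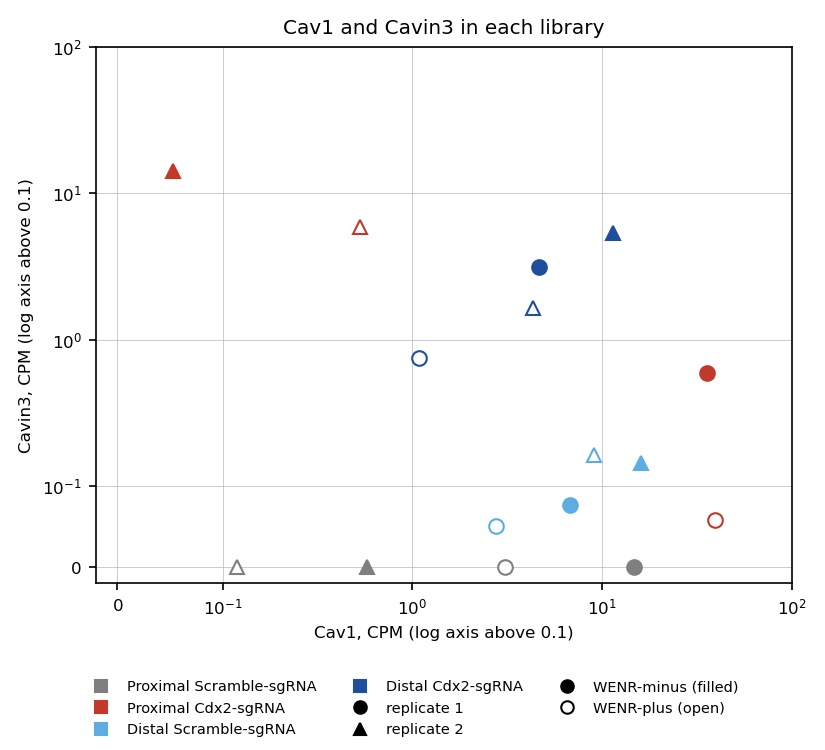
Level of Cavin3 against that of Cav1 in each of 16 libraries, both in counts-per-million on axes that are logarithmic above 0.1. Colours give region and guide, shapes the replicate, filled symbols WENR-minus. The red circles (replicate 1 of proximal Cdx2-sgRNA) lie at 35.9 and 39.2 CPM of Cav1, and the red triangles (replicate 2) at 14.2 and 5.92 CPM of Cavin3.

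Per length, in transcripts-per-million (TPM), Cavin1 and Cav2 were the most abundant members in proximal Cdx2-sgRNA organoids in WENR-minus, with levels of 187 ± 9.24 and 118.5 ± 41.2 TPM, followed by Cavin2 with 39.6 ± 15.6 TPM. In proximal Scramble-sgRNA organoids in the same medium the level of Cav2 was 64.2 ± 17.6 TPM and that of Cavin1 2.74 ± 0.698 TPM. In proximal Cdx2-sgRNA organoids in WENR-plus, the level was 144.8 ± 33.8 TPM for Cav2, 89.2 ± 3.06 TPM for Cavin1 and 36.9 ± 4.57 TPM for Cavin2. Cavin1 was thus above Cav2 in WENR-minus and below it in WENR-plus. In bulk RNA, more cells that express a gene and more RNA per cell cannot be told apart.

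The distal organoids were not used to choose the genes, and in them the Cdx2-sgRNA effect could be tested. Cavin1 was higher after Cdx2-sgRNA in WENR-minus, at 29.9 and 60.6 CPM against 15.5 and 14.7 CPM. The log2 fold change was 1.58 (SE 0.37, adjusted p = 0.025, edgeR), and it was the 1 member of 5 that was called (an absolute log2 fold change over 1 at an adjusted p under 0.05, as for every call here), against 5.25% of all genes. The call was lost without any 1 of 3 libraries, with adjusted p = 0.102 without Scramble-sgRNA replicate 1, 0.158 without Scramble-sgRNA replicate 2 and 0.196 without Cdx2-sgRNA replicate 2, where the log2 fold change was 0.98. It was also lost when only the 4 libraries compared were fitted (log2 fold change 1.56, adjusted p = 0.0575). The Cdx2-sgRNA replicates lay further apart than those of Scramble-sgRNA. Between same-numbered libraries, which are not taken as pairs across guides, the ratio was 4.12 in replicate 2 and 1.93 in replicate 1.

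In WENR-plus, Cavin1 was at 64.3 and 129 CPM in distal Cdx2-sgRNA organoids against 44.2 and 45.8 CPM. The groups did not overlap, but the difference did not pass (log2 fold change 1.103, SE 0.36, adjusted p = 0.457). No member passed there with edgeR, 2 had an unadjusted p under the threshold of 0.05, and DESeq2 called 0. The share of all genes called in this comparison was 0.262%. Cavin2 held 23 and 15 reads against 5 and 5 (log2 fold change 1.99, SE 0.55, adjusted p = 0.26).

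Cavin3 was present in distal Cdx2-sgRNA organoids and close to absent in distal Scramble-sgRNA organoids. It held 37 and 64 reads against 1 and 2 in WENR-minus, and 13 and 31 against 1 and 3 in WENR-plus. The ratios of pooled reads, scaled to library size, were 38.2 (95% counting interval 12.7 to 188) and 11.7 (4.25 to 44.7), where the exact binomial interval covers counting error only. Every distal Cdx2-sgRNA library lay above every distal Scramble-sgRNA library. Cavin3 passed the filter on low counts only through Cdx2-sgRNA libraries, where it is high, so that the tests of this difference give no support. In the model of 8 groups neither difference passed with edgeR (adjusted p = 0.144 and 0.889). In WENR-minus the result changed with the fit, with an adjusted p of 0.0249 with edgeR on only the libraries compared, 0.0461 with edgeR and a replicate block, 6.8e-09 with edgeR without a filter and 0.0263 with DESeq2.

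Cav2 was not called after Cdx2-sgRNA in distal organoids. It was at 83.8 and 61.5 CPM against 103 and 69.8 CPM in WENR-minus (log2 fold change −0.25, SE 0.28, adjusted p = 0.627) and at 73.8 and 72.2 against 79.1 and 67.6 CPM in WENR-plus (−0.01, SE 0.28, adjusted p = 1.00). The groups overlapped in both media. Between libraries of the same number, which are not taken as pairs across guides, Cav1 held fewer reads in distal Cdx2-sgRNA than in Scramble-sgRNA organoids. The ratios of CPM ran from 0.396 to 0.708, and the groups overlapped. The test of this difference did not pass (adjusted p = 0.912 in WENR-minus and 0.981 in WENR-plus). Cavin2 held 7 and 5 reads against 2 and 2 in WENR-minus, a ratio of 3.4 with a counting interval of 1.03 to 14.5.

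**Figure D3:**
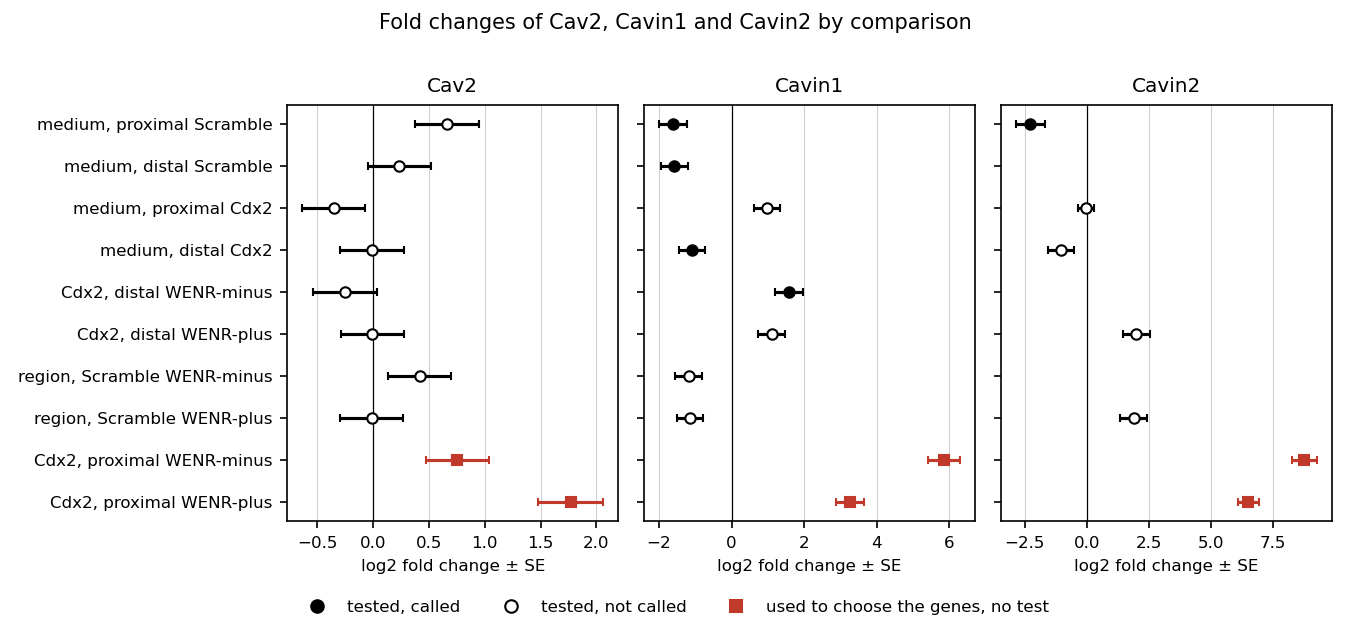
Log2 fold changes (points) with standard errors (bars) of Cav2, Cavin1 and Cavin2 in 10 comparisons, with a scale of its own for each gene. Medium is WENR-minus minus WENR-plus, Cdx2 is Cdx2-sgRNA minus Scramble-sgRNA and region is proximal minus distal. Filled circles passed the test and open circles did not. Red squares are the proximal contrast that was used to choose the genes. Comparisons where every library of a group held at most 3 reads are left out. Cavin1 lies left of 0 for medium in 3 of 4 kinds of organoid and right of 0 in proximal Cdx2-sgRNA organoids.

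Withdrawal of the WENR factors was compared within each kind of organoid. Cavin1 was lower in WENR-minus in 3 of them. In proximal Scramble-sgRNA organoids it fell from 23.8 and 16.9 to 8.24 and 5.05 CPM (3.08-fold, log2 fold change −1.62, SE 0.38, adjusted p = 0.00911). In distal Scramble-sgRNA organoids it fell from 44.2 and 45.8 to 15.5 and 14.7 CPM (2.98-fold, log2 fold change −1.58, SE 0.37, adjusted p = 0.00573). In distal Cdx2-sgRNA organoids it fell from 64.3 and 129 to 29.9 and 60.6 CPM (log2 fold change −1.096, SE 0.36, adjusted p = 0.0268).

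In proximal Cdx2-sgRNA organoids the order of the media was the opposite one. There Cavin1 was at 371 and 402 CPM in WENR-minus and at 199 and 194 CPM in WENR-plus. The groups did not overlap (log2 fold change 0.98, SE 0.36, adjusted p = 0.0948), and the ratio within a culture was 1.87 and 2.07. With a block for each culture, which compares both media of the same culture, the adjusted p was 0.000516 and the log2 fold change 0.97, still under 1. Within cultures the ratio of WENR-minus to WENR-plus in the other 3 kinds of organoid lay between 0.299 and 0.47. The difference of the medium effect between regions in Scramble-sgRNA organoids was −0.05 on the log2 scale (SE 0.52, adjusted p = 1.00), and that between guides in distal organoids was 0.48 (SE 0.51, adjusted p = 0.842).

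The calls of Cavin1 for medium depended on single libraries in 2 of these comparisons, and on the libraries fitted in 1 of them. In proximal Scramble-sgRNA organoids its adjusted p was 0.0748 without WENR-plus replicate 1 and 0.0822 without WENR-minus replicate 2. In distal Cdx2-sgRNA organoids it was 0.199 without WENR-minus replicate 1 (log2 fold change −0.67) and 0.368 without WENR-plus replicate 2 (−0.47). With only the 4 libraries compared it was 0.096 (−1.12), and Cavin3 was called higher in WENR-minus in its place (log2 fold change 1.79, adjusted p = 0.0419). In distal Scramble-sgRNA organoids every fit that left out a library passed, with adjusted p from 0.0237 to 0.041.

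Cavin2 also fell in proximal Scramble-sgRNA organoids in WENR-minus, from 28 and 10 reads to 1 and 6 (log2 fold change −2.28, SE 0.59, adjusted p = 0.0137). This call was lost without WENR-plus replicate 1 (log2 fold change −1.51, adjusted p = 0.147) and without WENR-minus replicate 1 (−1.61, adjusted p = 0.105), and with only the libraries compared (0.0953). Without WENR-minus replicate 2 the log2 fold change was −3.78. In distal Cdx2-sgRNA organoids it held 7 and 5 reads in WENR-minus, against 23 and 15 with WENR-plus (log2 fold change −1.05, SE 0.54, adjusted p = 0.132). Its log2 fold change in proximal Cdx2-sgRNA organoids was −0.03 (SE 0.32, adjusted p = 0.983).

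Cav1 was higher in WENR-minus within 6 of 8 cultures. The read numbers of the same culture in WENR-minus and WENR-plus were 238 and 64, and 11 and 2, in proximal Scramble-sgRNA organoids. They were 88 and 55, and 224 and 168, in distal Scramble-sgRNA organoids, and 55 and 19, and 136 and 82, in distal Cdx2-sgRNA organoids. Both proximal Cdx2-sgRNA cultures had fewer Cav1 reads in WENR-minus (484 and 676, and 1 and 10). Without a block and with the filter on low counts Cav1 passed in none of these comparisons with edgeR (adjusted p from 0.468 to 0.99). With a block for each culture it was called higher in WENR-minus in proximal Scramble-sgRNA (log2 fold change 2.26, adjusted p = 0.00205), distal Scramble-sgRNA (1.03, adjusted p = 0.0197) and distal Cdx2-sgRNA organoids (1.66, adjusted p = 0.00248). For Cavin3, the same block gave a call in distal Cdx2-sgRNA organoids (1.86, adjusted p = 0.00536), with 37 and 64 reads in WENR-minus against 13 and 31. It also gave one in proximal Cdx2-sgRNA organoids (1.55, adjusted p = 0.039), which rests on 8 against 1 read in one culture and 268 against 112 in the other. In the model of 8 groups with the filter and no block neither passed (adjusted p = 0.359 in distal and 0.617 in proximal Cdx2-sgRNA organoids), and in proximal Cdx2-sgRNA organoids the log2 fold change then ran from −2.34 to 6.83 as each library was left out.

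**Figure D4:**
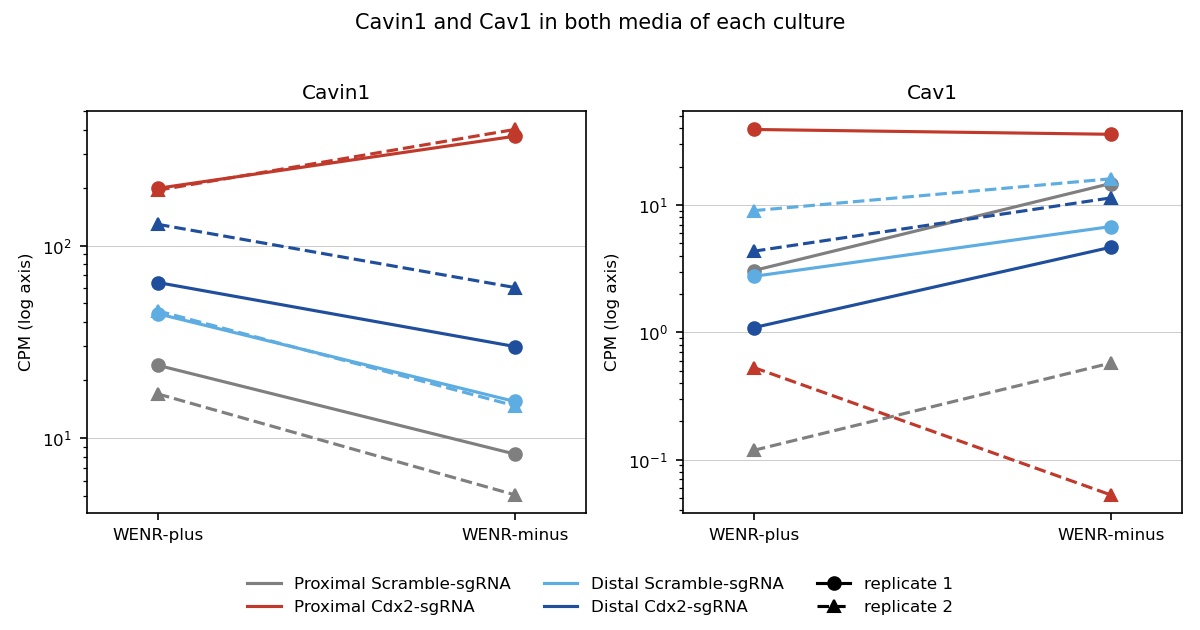
Counts-per-million (logarithmic axis) of Cavin1 and Cav1 in WENR-plus and WENR-minus, with a line for each of 8 cultures. Colours give region and guide, and the line and symbol give the replicate. Cavin1 is lower in WENR-minus in 6 cultures and higher in both proximal Cdx2-sgRNA cultures, at 371 and 402 against 199 and 194 CPM. Cav1 is higher in WENR-minus in the same 6 cultures, and the lowest values rest on at most 11 reads.

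Without the block, 2 of 5 members passed for medium in proximal Scramble-sgRNA organoids, where 17% of all genes did, and 1 of 5 in distal Scramble-sgRNA (26.4%) and in distal Cdx2-sgRNA organoids (33.1%). For proximal Cdx2-sgRNA organoids 0 of 5 passed with edgeR, 1 had an unadjusted p under 0.05 and DESeq2 called 0, against 6.4% of all genes. With the block for each culture the counts were 3 in proximal Scramble-sgRNA, 2 in distal Scramble-sgRNA, 3 in distal Cdx2-sgRNA and 1 in proximal Cdx2-sgRNA organoids, where the shares of all genes called in the same fit were 21.3%, 30.3%, 36.5% and 10.1%. Cav2 did not pass for medium with all 16 libraries. Without WENR-minus replicate 2 it was called higher in WENR-minus in proximal Scramble-sgRNA organoids (log2 fold change 1.04, adjusted p = 0.0247), and leaving out each library in turn there gave 0.28 to 1.04. Its log2 fold changes were 0.66 (SE 0.28, adjusted p = 0.103) in proximal Scramble-sgRNA, 0.24 (SE 0.28, adjusted p = 0.543) in distal Scramble-sgRNA, −0.35 (SE 0.28, adjusted p = 0.46) in proximal Cdx2-sgRNA and −0.01 (SE 0.28, adjusted p = 0.995) in distal Cdx2-sgRNA organoids.

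Between the regions of the colon, Scramble-sgRNA organoids differed in Cavin1 by about the same amount in both media. It was lower in proximal organoids by 1.19 on the log2 scale in WENR-minus (log2 fold change −1.19, SE 0.38, adjusted p = 0.0758) and by 1.14 in WENR-plus (−1.14, SE 0.36, adjusted p = 0.164). The libraries of the regions did not overlap in either medium. With edgeR 0 of 5 members passed in WENR-minus (1 with an unadjusted p under 0.05), where 6.08% of all genes did, and 0 of 5 in WENR-plus (2 with an unadjusted p under 0.05), where 1.75% did. DESeq2 called Cavin1 in both media (adjusted p = 0.0125 and 0.0437) and Cavin2 in WENR-plus (0.0423). Cavin2 held 28 and 10 reads in proximal organoids in WENR-plus against 5 and 5 in distal ones (log2 fold change 1.90, SE 0.55, adjusted p = 0.118, edgeR), and the log2 fold change was 1.17 without proximal replicate 1. Cav2 did not pass in WENR-minus (0.42, SE 0.28, adjusted p = 0.385) or in WENR-plus (−0.01, SE 0.28, adjusted p = 1.00). Cavin3 held at most 3 reads in every Scramble-sgRNA library.

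In Cdx2-sgRNA organoids the order of the regions for Cavin1 was the opposite one. The proximal libraries, at 371 and 402 CPM in WENR-minus and at 199 and 194 CPM in WENR-plus, lay above the distal ones, at 29.9 and 60.6 and at 64.3 and 129 CPM. The log2 differences of proximal minus distal were 3.10 (SE 0.39) and 1.02 (SE 0.36), which rest on the libraries used to choose the genes and have no test. Cav2 and Cavin2 were also higher in proximal than in distal Cdx2-sgRNA organoids, by 1.42 (SE 0.29) and 7.43 (SE 0.47) in WENR-minus and by 1.77 (SE 0.29) and 6.41 (SE 0.42) in WENR-plus.

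Over 16 libraries, which share groups and cultures, Pearson correlations of log2 CPM were highest between Cavin1 and Cavin2 (0.841) and between Cav2 and Cavin2 (0.822). They were 0.646 between Cavin1 and Cavin3 and 0.55 between Cav2 and Cavin1, whereas those of Cav1 with the other members lay between −0.26 and 0.185. The genes most like Cav2 among 15289 were Arl6ip5 (0.965), Gm26559 (0.94) and Lamtor5 (0.933). The genes most like Cavin1 were Pml (0.955), Arhgap10 (0.95) and Bcam (0.946), and those most like Cavin2 were Ptpn13 (0.983), Bicc1 (0.977) and Bst1 (0.975). Cavin3 was most like C4bp (0.925), Cpm (0.907) and Thpo (0.881). For Cav1 no gene exceeded 0.74 (Gm12286), followed by Gm42566 (0.738) and Lin52 (0.733).

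Of 13 other genes of the caveola (Cav3, Cavin4, the EHD ATPases, the pacsins, Dnm2, Ror1, Flna and Plvap), 9 had enough counts to be tested. For the Cdx2 guide in proximal WENR-minus organoids, 2 of these 9 rose, 0 fell and 7 did not pass, a share close to the 21.2% called among all genes, with a median log2 fold change of 0.67 over the list and 0.00 over all genes. Ehd2, the ATPase that holds caveolae at the membrane, was at 49.7 and 29.4 CPM against 6.14 and 3.80 CPM (log2 fold change 2.99, SE 0.85, adjusted p = 0.020). Pacsin3, a membrane-bending F-BAR protein, was at 17.5 and 20.1 CPM against 6.07 and 2.45 CPM (2.15, SE 0.72, adjusted p = 0.0414). In WENR-plus 0 of 9 passed with edgeR (1 with an unadjusted p under 0.05) and 0 with DESeq2, against 15.9% of all genes, and the median was −0.20 against −0.05 over all genes. Ehd2 was at 25.5 and 7.30 CPM against 6.69 and 4.08 CPM there (log2 fold change 1.60, SE 0.81, adjusted p = 0.173). In distal organoids 0 of 9 passed after Cdx2-sgRNA with edgeR in WENR-minus (2 with an unadjusted p under 0.05, 1 called by DESeq2) and 0 in WENR-plus (0 unadjusted, 0 by DESeq2). The shares of all genes called with edgeR were 5.25% in distal WENR-minus and 0.262% in distal WENR-plus. Ehd2 was at 5.16 and 9.37 CPM against 1.15 and 0.860 CPM in distal WENR-minus (2.85, SE 0.94, adjusted p = 0.0812).

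For medium, 1 of 9 passed in proximal Scramble-sgRNA organoids and 3 of 9 in each kind of distal organoid, where 17%, 26.4% and 33.1% of all genes did. Ehd1 was higher in WENR-minus in proximal Scramble-sgRNA (log2 fold change 1.26, adjusted p = 0.0037), distal Scramble-sgRNA (1.18, adjusted p = 0.00315) and distal Cdx2-sgRNA organoids (1.48, adjusted p = 0.000543). Pacsin2 rose in distal Scramble-sgRNA (1.23, adjusted p = 0.000157) and distal Cdx2-sgRNA organoids (1.30), and Dnm2, which cuts vesicles from the membrane, in the latter (1.24, adjusted p = 0.000135). Flna, the actin linker of caveolae, fell in distal Scramble-sgRNA organoids (−2.57, adjusted p = 0.0049). In proximal Cdx2-sgRNA organoids 0 of 9 passed for medium with edgeR, against 6.4% of all genes. There 4 had an unadjusted p under 0.05 and DESeq2 called 1. All 10 genes of other routes of entry (flotillins, clathrin and the AP2 adaptor) were tested. Of these Ap2a2 rose on WENR withdrawal in proximal Scramble-sgRNA organoids (1.24, adjusted p = 0.00704), and Cltb in distal Cdx2-sgRNA organoids (1.200). For the guide, Ap2a2 was lower in proximal Cdx2-sgRNA than in proximal Scramble-sgRNA organoids, both in WENR-minus, at 68.5 and 38.8 against 159 and 121 CPM (−1.39, adjusted p = 0.00341). The other genes of the list did not pass in the comparisons of medium, of guide, or of region in Scramble-sgRNA organoids. Among them, Flot2 in WENR-plus was at 46.2 and 33.6 CPM in proximal Cdx2-sgRNA against 0.382 and 9.76 CPM in proximal Scramble-sgRNA organoids. In WENR-minus it was at 45.1 and 28.9 against 0.124 and 8.13 CPM. These groups did not overlap in either medium, and the Scramble-sgRNA replicates lay far apart. In distal organoids the guides overlapped for Flot2 in both media.

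The nearest 3 protein-coding genes on each side of the Cav2 and Cav1 pair are Mdfic, Tfec and Tes before it and Met, Capza2 and St7 after it. Tfec held 0 reads in every library. Met, the receptor of hepatocyte growth factor, rose after Cdx2-sgRNA in proximal organoids in WENR-plus, at 132 and 109 CPM against 53.1 and 50.8 CPM (log2 fold change 1.22, SE 0.17, adjusted p = 0.000518). In WENR-minus it was at 173 and 146 against 107 and 94.9 CPM (0.66, SE 0.17, adjusted p = 0.0116), under the fold change required for a call. None of the other neighbours was called in either comparison of guides in proximal or distal organoids. The antisense gene Gm15581, which overlaps Cav1 and Cav2, held 33 reads over all libraries.

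Markers of other cell types were read because caveolae are abundant outside epithelium. The 7 epithelial markers summed to between 4130 and 19800 CPM in every library. Krt19 led this sum, which does not show how each of the other epithelial markers moved. The 9 fibroblast markers summed to 0.264 to 0.846 CPM in proximal Cdx2-sgRNA organoids and to 2.37 to 9.42 CPM elsewhere, and 3 of them were at 0 in every library. Pdgfrb led these sums elsewhere, with 29 to 138 reads per library against 1 or 2 in proximal Cdx2-sgRNA organoids, whereas Col1a1 held 2 to 7 reads in proximal Cdx2-sgRNA organoids and at most 1 elsewhere. The 6 smooth muscle markers reached at most 0.521 CPM and the 4 adipocyte markers at most 0.215 CPM. The 5 markers of glia and neurons reached at most 1.83 CPM.

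The summed endothelial and immune markers of proximal Cdx2-sgRNA organoids each rested mainly on 1 gene. The 8 endothelial markers summed to 14.4 to 18.8 CPM in proximal Cdx2-sgRNA organoids in WENR-plus, to 2.86 to 3.27 CPM in the same organoids in WENR-minus and to 0.25 to 3.70 CPM elsewhere. Esam, an adhesion molecule that is also found outside endothelium, made up nearly all of the highest sums (14.3 and 18.8 CPM). In WENR-minus Esam held 41 and 49 reads in proximal Cdx2-sgRNA organoids and 0 in both libraries of proximal Scramble-sgRNA organoids, where Tie1 held 16 to 61 reads against at most 2. Cdh5 held at most 1 read in any library, and 2 of the 8 were at 0 in all of them. Pecam1 held at most 1 read in any proximal Cdx2-sgRNA library. In WENR-minus it held 5 and 6 reads in proximal Scramble-sgRNA organoids and 26 and 15 in distal Scramble-sgRNA organoids. The 6 immune markers summed to 2.17 to 20.7 CPM in proximal Cdx2-sgRNA organoids and to at most 1.59 CPM elsewhere. Of these Csf1r led, with 19.4 and 5.66 CPM in WENR-minus, followed by 9.11 and 1.85 CPM with WENR-plus, while the pan-leukocyte gene Ptprc held 12 and 5 reads in WENR-minus and 1 and 0 with WENR-plus. In distal Cdx2-sgRNA organoids Ptprc held 3 and 5 reads in WENR-minus and 4 in each WENR-plus library, and in Scramble-sgRNA organoids it held at most 2. Csf1r was higher in replicate 1 of proximal Cdx2-sgRNA organoids, as was Cav1, whereas Cavin3 was higher in replicate 2 and the replicates of Cavin1 lay close together. Whether cells of these types were present, and their part in the levels of the caveolin and cavin genes, was not tested.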

How the data were processed

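RNA was read from 16 mouse colon organoid libraries. The authors quantified reads with Salmon (1.1.0 in the submitters' processing notes) on GENCODE vM23 transcripts, and the deposited expected counts (estimated counts) per transcript are not scaled between libraries. The deposited tables also hold TPM and effective lengths from the authors' Salmon run, used here for levels between genes and for length-scaled counts. Of 140748 transcripts, 139864 matched GENCODE vM21 by identifier, and the other 884 (0.257 to 0.509% of a library) were left out. Counts were summed to 54123 genes and rounded. The study's methods used tximport and DESeq2.

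In R 4.3.3, filterByExpr of edgeR 4.0.16 kept 15289 genes, which were scaled by TMM and fitted with glmQLFit in a model of 8 groups (8 residual degrees of freedom, prior count 0.125). Contrasts were tested with glmQLFTest with Benjamini-Hochberg adjustment over all tested genes, on the expected counts rounded to whole numbers. A call needed an absolute log2 fold change over 1 at an adjusted p under 0.05. The script was tested on simulated data. At most 3 reads in every library of a group counted as the floor of detection, and 95% counting intervals are exact binomial and cover counting error only. Alternatives were RLE size factors, DESeq2 1.42.0, other filters, no fold change threshold, only the libraries compared, length-scaled counts, a replicate block and leaving out each library.

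The replicate number pairs both media of a culture: deviations from the group means correlated at 0.281 to 0.589 in each of 4 kinds of organoid, and the methods describe both media for the same organoids. Over all 28 pairs of groups the correlation was −0.0594 to 0.589, with 9 over 0.1, so that numbers were not taken to pair other groups.

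Genes named are Cdx2, the 5 members, up to 3 called genes of each list per comparison with the largest change and at least 1 CPM in the higher group, 3 neighbours on each side of the Cav2 and Cav1 pair and the 3 genes most correlated with each member (log2 CPM, prior count 2). Esam, Cdh5, Pecam1, Csf1r, Ptprc, Tie1, Pdgfrb, Col1a1, Krt19 and Flot2 were named after their values were seen. So were Ehd2 where it did not pass and Met in WENR-minus. The members and lists were chosen with earlier results of these data known, and the promoter letters with the windows in view. All 5 members passed the filter on low counts, Cavin3 and Cavin2 through the groups where they were high. Promoter windows (RefSeq) were found for 4 of the 5 members.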

Additional observations from a re-analysis of the deposited data

Results flagged for a closer look

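The effect of WENR withdrawal on Cavin1 had opposite directions in organoids that differ in guide or region. In proximal Cdx2-sgRNA organoids both WENR-minus libraries lay above both WENR-plus libraries (log2 fold change 0.98), whereas in proximal Scramble-sgRNA organoids (−1.62) and in distal Cdx2-sgRNA organoids (−1.096) both lay below. The differences of these log2 fold changes were 2.60 against proximal Scramble-sgRNA and 2.07 against distal Cdx2-sgRNA organoids, and they were not tested. The regions also had opposite orders for Cavin1. Both proximal libraries lay below both distal ones in Scramble-sgRNA organoids and above them in Cdx2-sgRNA organoids, in each medium, with differences of the log2 fold changes of 4.28 in WENR-minus and 2.16 in WENR-plus. These rest on the libraries by which the genes were chosen and were not tested.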

How the results depend on the processing

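The groups hold 2 libraries each, so that leaving out a library leaves 1 in its group, which was then assumed to vary like the other groups. The number of members called changed with the setting as follows, and the cause was not tested. For settings other than the block within culture, the share of all genes called in the same fit is not given. Those counts therefore describe the setting and give no result about the members. Without a filter on low counts it was 3 for medium in proximal Scramble-sgRNA and in distal Cdx2-sgRNA organoids, 2 and 3 for Cdx2-sgRNA in distal WENR-minus and WENR-plus, and 1 and 3 for region in Scramble-sgRNA WENR-minus and WENR-plus. With at least 10 counts in every library, which removes 3 members from the test, it was 1 for medium in proximal Scramble-sgRNA. With only the libraries compared it was 1 for medium in proximal Scramble-sgRNA, where Cavin2 was lost. It stayed at 1 for medium in distal Cdx2-sgRNA and for Cdx2-sgRNA in distal WENR-minus, but Cavin3 took the place of Cavin1 in both. With the replicate block it was 2 for Cdx2-sgRNA in distal WENR-minus, where Cavin3 was added (adjusted p = 0.0461). With the replicate block within culture it was 3, 2, 1 and 3 for medium in proximal Scramble-sgRNA, distal Scramble-sgRNA, proximal Cdx2-sgRNA and distal Cdx2-sgRNA, where that fit called 21.3%, 30.3%, 10.1% and 36.5% of all genes. With DESeq2 it was 2 for Cdx2-sgRNA in distal WENR-minus, and 1 and 2 for region in WENR-minus and WENR-plus. For the proximal contrast that chose the genes, from which nothing is read, the count of 3 in each medium became 4 and 5 (WENR-minus and WENR-plus) without a filter and 1 and 2 with at least 10 counts. It became 2 in WENR-minus with only the libraries compared, and 4 in WENR-plus with DESeq2 and with the replicate block. Leaving out 1 library gave 0 to 2 for medium in proximal Scramble-sgRNA, 0 to 1 for medium in distal Cdx2-sgRNA and 0 to 1 for Cdx2-sgRNA in distal WENR-minus.

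Signs turned only for differences that had not passed in the main test. Values near 0 that turned were those of Cav2 for medium in distal Cdx2-sgRNA (0.058 with RLE factors and with DESeq2, 0.044 without a filter), for Cdx2-sgRNA in distal WENR-plus (0.0078 with RLE factors and with DESeq2, 0.0057 with the replicate block, 0.0068 with only the libraries compared) and for region in WENR-plus (0.0295 with at least 10 counts, 0.00061 with the replicate block, 0.094 with length-scaled counts, 0.0084 with only the libraries compared), and that of Cavin2 for medium in proximal Cdx2-sgRNA (0.0052 with length-scaled counts). With length-scaled counts Cav1 turned for Cdx2-sgRNA in distal WENR-plus (0.13) and for the difference of the medium effect between guides in distal organoids (−0.97).

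With 1 library left out, the log2 fold change of Cav1 ranged from −1.48 to 5.99 for medium in proximal Scramble-sgRNA, −8.32 to 5.07 for medium in proximal Cdx2-sgRNA, −1.30 to 0.24 and −2.40 to 0.017 for Cdx2-sgRNA in distal WENR-minus and WENR-plus, −4.35 to 0.36 for region in WENR-minus, and −2.50 to 4.97 and −0.53 to 1.89 for the medium effect between regions and between guides. That of Cav2 ranged from −0.071 to 0.49 and −0.25 to 0.25 for medium in distal Scramble-sgRNA and distal Cdx2-sgRNA, −0.50 to 0.052 and −0.075 to 0.11 for Cdx2-sgRNA in distal WENR-minus and WENR-plus, −0.029 to 0.73 and −0.091 to 0.093 for region in WENR-minus and WENR-plus, and −0.027 to 0.74 and −0.50 to 0.061 for the medium effect between regions and between guides. Cavin1 ranged from −0.49 to 0.26 and −0.12 to 1.03 for the medium effect between regions and between guides. For medium in proximal Cdx2-sgRNA organoids Cavin2 ranged from −0.35 to 0.25 and Cavin3 from −2.34 to 6.83. Low counts limit Cavin3 (0 to 3 reads per library) and Cavin2 (1 to 28 reads per library) in Scramble-sgRNA organoids.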
